A study of Mus musculus with 5 samples.

Results

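Kupffer cells are the resident macrophages of the liver, attached to the walls of its sinusoids, and a set of transcripts tells them apart from macrophages of other tissues. This report describes 8 of those signature genes: Folr2, Slc16a9, Dnase1l3, Ptgs1, Pcolce2, Gdf15, Cdh5 and Paqr9. They were chosen by name, with earlier results of these data known. They were found by symbol, 1 row each, among the 46983 genes of the count table. The set leaves out the lectins and scavenger receptors by which Kupffer cells bind blood-borne particles, although Folr2 encodes a folate receptor and Paqr9 belongs to a receptor family by sequence. RNA sequencing of mouse liver Kupffer cells covered 3 samples heterozygous for Id3 (ID3+/-, replicates 1, 2 and 3) and 2 knockout samples (ID3-/-, replicates 2 and 3). No wild-type sample entered, so each comparison sets cells with no functional copy against cells that keep 1 copy. The labels give genotype, cell type and tissue only, with no strain, sex, treatment or allele design. The table's columns for all 5 samples also carry the tag 3w, which may be an age or a time and which no label explains. Nor do they tie samples to separate animals, so the p-values measure how far these 5 samples vary, which could be technical variation alone. The comparison asked how the Kupffer cell transcriptome differs when Id3 is missing.

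Id3 has a helix-loop-helix domain but no region that contacts DNA, and by pairing with E proteins such as Tcf3 it keeps them off their motif, the E-box. Kupffer cells express Id3 strongly among tissue macrophages. The signature genes described here have unrelated tasks. They cover vitamin uptake (Folr2), transport of small metabolites (Slc16a9), clearance of extracellular DNA (Dnase1l3), prostanoid synthesis (Ptgs1), collagen maturation (Pcolce2), stress signalling to other organs (Gdf15), cell adhesion (Cdh5) and a membrane receptor family (Paqr9).

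Libraries held 74.8M to 80.9M counts on genes. Id3 itself stood at 221 to 256 CPM (the count as a rate of all gene counts, scaled for library composition) in the heterozygous and at 1.01 and 1.42 CPM in the knockout libraries, so each library matched its genotype label. Kupffer cell markers were abundant throughout, with Clec4f, the lectin that defines these cells, at 16452 to 17232 and at 15645 and 13578 CPM. Markers of other cells differed between the genotypes. Hepatocyte markers summed to 19193 to 22817 CPM in the heterozygous and 4357 and 9893 CPM in the knockout libraries, and neutrophil markers to 74.6 to 80.2 CPM in the heterozygous and to 345 and 135 CPM in knockout replicates 2 and 3. Csf3r made up 63.0 to 71.5 CPM of the heterozygous sums and 130 and 102 CPM of the knockout sums. The granule genes Ngp (78.3 against 0.465 CPM), Ltf (40.5 against 0 CPM) and Camp (17.6 against 0.0517 CPM) were high in knockout replicate 2 only. S100a8 (1.56 to 4.53 against 38.7 and 15.9 CPM) and S100a9 (0.0365 to 0.439 against 32.8 and 12.8 CPM) were higher in both knockout libraries. Of the 8 neutrophil markers tested, 5 were higher at an edgeR adjusted p under 0.05 and 0 lower. In bulk RNA, fewer cells of a type and less RNA per cell cannot be told apart.

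The E-box is the sequence through which E proteins act, so the bases upstream of the start sites are shown for 3 of the 8 genes. Folr2 and Ptgs1 are the most abundant members, and Pcolce2 holds the E-box form CAGCTG. The sequences come from RefSeq (GRCm38.p6), run 5′ to 3′ on the gene's strand, and leave out bases annotated as exon in GENCODE M21. Capitals mark each match to CANNTG. The count table carries no coordinates, and the build of these sequences need not be the one on which the reads were counted.
Folr2, chr7:101845332-101845581, minus strand, upstream of the downstream one of its 2 start sites: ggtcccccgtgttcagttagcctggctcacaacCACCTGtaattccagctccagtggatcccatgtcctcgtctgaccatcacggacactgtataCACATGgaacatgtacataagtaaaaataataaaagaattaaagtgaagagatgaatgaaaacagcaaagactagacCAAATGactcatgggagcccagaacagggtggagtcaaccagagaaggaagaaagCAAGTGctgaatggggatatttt
Ptgs1, chr2:36230176-36230425, plus strand: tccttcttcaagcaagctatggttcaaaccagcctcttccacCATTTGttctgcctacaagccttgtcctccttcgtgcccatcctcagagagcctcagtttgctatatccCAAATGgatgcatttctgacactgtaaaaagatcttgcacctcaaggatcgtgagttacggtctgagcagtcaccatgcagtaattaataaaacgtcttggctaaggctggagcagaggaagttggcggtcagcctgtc
Pcolce2, chr9:95637378-95637600, plus strand: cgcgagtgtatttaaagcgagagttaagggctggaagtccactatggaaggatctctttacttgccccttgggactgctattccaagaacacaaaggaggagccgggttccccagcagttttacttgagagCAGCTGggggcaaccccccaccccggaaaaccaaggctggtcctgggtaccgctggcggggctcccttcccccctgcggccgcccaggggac

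RefSeq windows of 250 bases upstream of a start site were found for 5 of the 8 genes, 7 windows in all. No such window was found for Dnase1l3, Paqr9 or Cdh5. CANNTG, which reads the same on both strands, was present in 6 of the 7 windows and in 66.2% of all 32851 windows of the mouse genome. The window shown for Folr2 held 4, that of the downstream Gdf15 start 3, that of Ptgs1 2, and those of Pcolce2, Slc16a9 and the other Folr2 start 1 each. All counts in this paragraph include bases annotated as exon. With those left out as above, 0 bases of the downstream Gdf15 window and 74 of the Slc16a9 window remained. No match of either window lay in what remained. CAGCTG occurred in 1 window (Pcolce2) and in 4271 of all windows. CAGGTG or its reverse complement CACCTG occurred in 2 (Folr2 and Gdf15) and in 17.2% of all windows. Such matches are frequent in any promoter and describe letters only.

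Of the 8 signature genes, 1 was higher (Paqr9), 1 was lower (Cdh5) and 6 were not called in the knockout cells, where called means an edgeR adjusted p under 0.05 over all 16436 genes tested. All 8 passed the filter on low counts. Over all genes tested 16.4% were called, 6.41% higher and 10.0% lower. The 2 of 8 (25%) thus stood near the background, and with 8 genes the count says little about the set. The median log2 fold change was -0.04 over the 8 genes and -0.02 over all genes tested. The knockout libraries lay wholly above the heterozygous ones for 3 members (Paqr9, Ptgs1 and Gdf15), wholly below for 3 (Cdh5, Slc16a9 and Pcolce2), and overlapped for 2 (Folr2 and Dnase1l3). Over all genes the groups were separate in 51.5%. The split of the background calls into higher and lower depended on the scaling: 1054 and 1644 by default, 1443 and 1499 with upper-quartile scaling, and 1119 and 849 with offsets for transcript length and GC content. Fits without heterozygous replicates 1, 2 and 3 called 463 of 15972, 335 of 16022 and 2540 of 16137 genes. The list counts of those fits, given below, are to be read beside these shares.

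**Figure D1:**
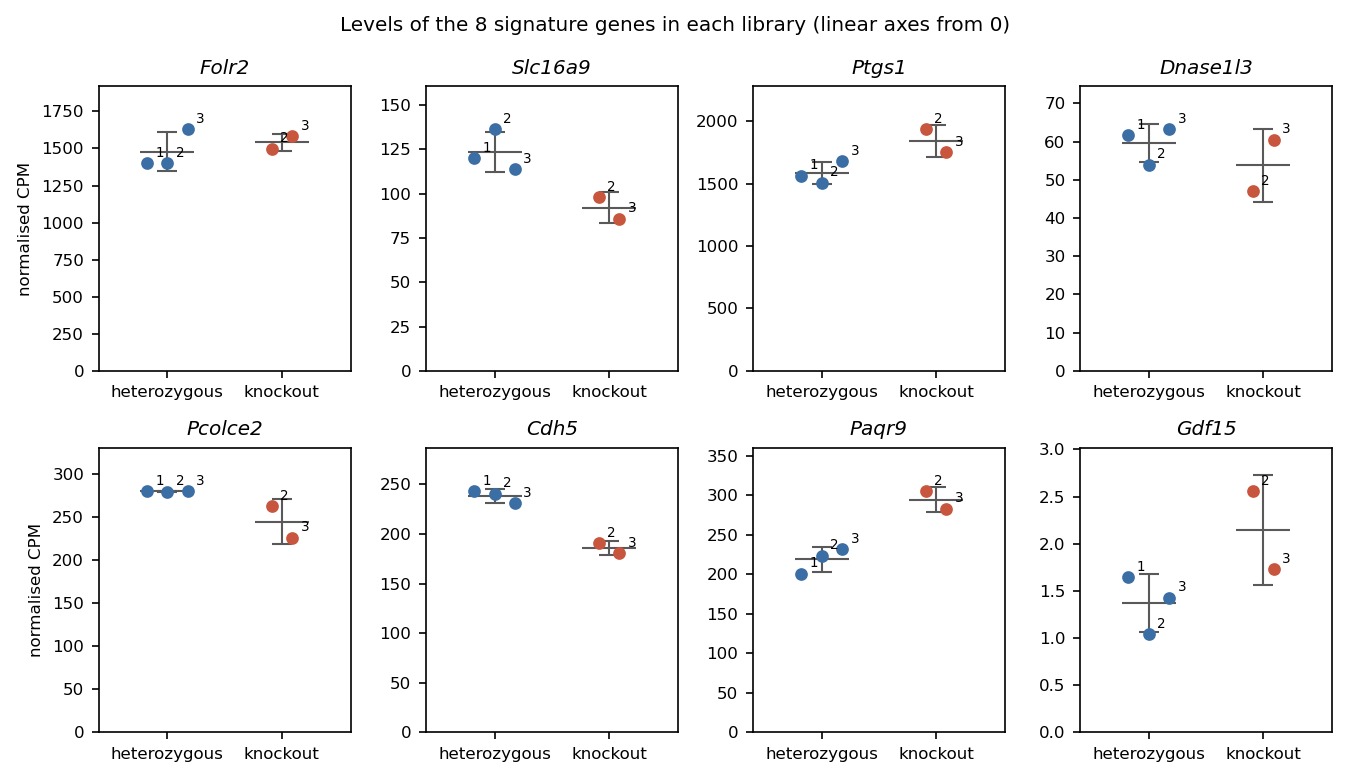
Normalised CPM of each signature gene (linear axes from 0) in the 3 heterozygous (blue) and 2 knockout (red) libraries, numbered by replicate, with the mean and SD of each group in grey. The 2 groups are separate in 6 of the 8 panels and overlap for Folr2 and Dnase1l3, and the differences are small beside the levels except for the scarce Gdf15.

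Folr2, folate receptor beta, is anchored in the outer membrane and binds folates with high affinity. It was the 68th most abundant of the genes tested by mean CPM. Its level was 1400.2, 1403 and 1628 CPM in heterozygous replicates 1, 2 and 3, and 1498.5 and 1583 CPM in knockout replicates 2 and 3. Both knockout values lay inside the heterozygous range, which heterozygous replicate 3 sets at its upper end. The log2 fold change was 0.06 ± 0.10 (SE, n = 3 and 2), with a 95% interval of -0.18 to 0.30 and an edgeR adjusted p of 0.725. With length and GC offsets its sign turned, to -0.14 ± 0.08 (adjusted p = 0.266). Of the exon bases of Folr2, 975 of 1546 are also exon of Gm10602 on the opposite strand, which received 125 to 190 counts per library against 110737 to 122544 for Folr2. No source used here gives the strand setting of the counting, so the 2 genes' reads may not be fully separated.

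Of the 23 tested genes of folate uptake and one-carbon metabolism, Folr2 included, 3 were higher and 7 lower. The shares over all genes tested were 6.41% higher and 10.0% lower. Aldh1l1, the cytosolic formyltetrahydrofolate dehydrogenase, fell from 341 ± 31.1 CPM (SD, n = 3) to 152 ± 0.0679 CPM (SD, n = 2), or -1.17 ± 0.11 on the log2 scale (adjusted p of 0.00502 by edgeR). Shmt1, the cytosolic serine hydroxymethyltransferase, fell by 0.93 ± 0.11 and Ftcd, a folate-dependent enzyme of histidine breakdown, fell by 1.46 ± 0.19 on the log2 scale. Hepatocytes are known to make all of these in quantity, and the summed hepatocyte markers given above were lower in the same libraries. Its part in these values was not tested. The proton-coupled folate transporter Slc46a1 rose from 51.3 to 86.2 CPM (0.75) and the reduced folate carrier Slc19a1 from 31.2 to 44.9 CPM (0.53). Folr1, the paralog beside Folr2 on the chromosome, was scarce, at 0.755 to 2.00 CPM in the heterozygous and 1.62 and 2.64 CPM in the knockout libraries. Without heterozygous replicate 1 the list held 0 higher and 3 lower, and without replicate 2 it held 0 and 4. Without heterozygous replicate 3 it held 2 and 5, without knockout replicate 2 it held 1 and 6, and without knockout replicate 3 it held 2 and 5.

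Slc16a9, a member of the monocarboxylate transporter family known to carry carnitine and creatine, was at 120, 136 and 114 CPM in the heterozygous and 98.2 and 86.0 CPM in the knockout libraries. Every knockout value was below every heterozygous one. The log2 fold change was -0.42 ± 0.12 (95% interval -0.71 to -0.14), which gave an unadjusted p of 0.0107 and an edgeR adjusted p of 0.059. DESeq2 (adjusted p = 0.0148), limma-voom (adjusted p = 0.0492) and a filter of 1 CPM in 2 samples (adjusted p = 0.0438) placed it past the threshold. The offsets for length and GC content brought it to -0.17 ± 0.10 (adjusted p = 0.306), and adjusted p over the 15 alternatives ran from 0.0148 to 0.306. Of the 14 tested monocarboxylate transporters and their chaperones, Slc16a9 included, 3 were lower and 1 higher, where 16.4% of all genes tested were called. Slc16a7 went from 23.8 to 11.1 CPM (-1.11 ± 0.22) and Slc16a1, the widespread lactate transporter, from 18.3 to 11.2 CPM (-0.71 ± 0.14). Bsg, the chaperone that brings Slc16a1 to the cell surface, rose from 591 to 762 CPM (0.37 ± 0.09). Slc16a7, Slc16a1 and Bsg each lost the call with length and GC offsets, at -0.24, -0.15 and 0.10. Without heterozygous replicate 1 or 2 the list held no call, without heterozygous replicate 3 it held 1 higher and 3 lower, without knockout replicate 2 it held 1 lower, and without knockout replicate 3 it held 3 lower.

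Dnase1l3, a secreted nuclease that digests DNA in chromatin and in microparticles, was at 61.8, 54.0 and 63.2 CPM in the heterozygous and 47.0 and 60.5 CPM in the knockout libraries. Knockout replicate 3 lay among the heterozygous values and replicate 2 below them. The log2 fold change of -0.15 ± 0.14 (edgeR adjusted p = 0.53) turned to 0.02 without knockout replicate 2 and to 0.13 with length and GC offsets. Dendritic cells and sinusoidal endothelium are also known to make Dnase1l3. Dendritic cell markers summed to 264 to 317 CPM in the heterozygous and 290 and 428 CPM in the knockout libraries, of which Bst2, which interferon also induces, made up 235 to 408 CPM. Zbtb46, a factor of conventional dendritic cells, was at 13.4 to 14.9 and at 14.0 and 11.9 CPM, and Dpp4 fell from 10.4 to 15.9 CPM to 2.90 and 2.18 CPM. Flt3, Xcr1, Clec9a and Siglech were each at most 3.51 CPM. The part of dendritic or endothelial RNA in the Dnase1l3 values was not tested.

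Among 16 other and related nucleases tested, Dnase1l3 included, 3 were higher and 0 lower, against 6.41% higher over all genes tested. Pld3, a lysosomal exonuclease of single-stranded DNA, rose from 488 ± 29.5 to 928 ± 74.2 CPM (0.93 ± 0.09, with an adjusted p of 0.00696 by edgeR). Dnase2a, the acid nuclease of lysosomes, rose from 58.3 to 86.1 CPM (0.56 ± 0.09) and Dnase1l1 from 45.3 to 66.7 CPM (0.56 ± 0.11). Pld4, a second exonuclease of this kind, was at 1130 ± 145 and 1474 ± 137 CPM and was not called (0.38 ± 0.13, adjusted p = 0.0888). Without heterozygous replicate 1, heterozygous replicate 2 or knockout replicate 2 the list held 1 higher and 0 lower, without heterozygous replicate 3 it held 4 and 0, and without knockout replicate 3 it held 2 and 1. Pld3 was called in each of these 5 fits.

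Ptgs1, the constitutive cyclooxygenase, makes prostaglandin H from arachidonic acid and ranked 60th by mean CPM. Its values were 1565, 1508 and 1681 CPM in the heterozygous and 1933 and 1752 CPM in the knockout libraries, with both knockout libraries on top. The difference was small: a log2 fold change of 0.22 ± 0.09, 16.3% on the CPM scale, with an unadjusted p of 0.0479 and an edgeR adjusted p of 0.146. Ptgs2, the inducible cyclooxygenase, was nearly absent, with group means of 0.0591 and 0.194 CPM. Platelets are also known for Ptgs1. The sum of 9 platelet markers was higher in the knockout libraries, at 103 to 116 against 162 and 150.5 CPM. Most of it was Pf4, which rose from 98.8 to 104 CPM to 154 and 145 CPM (0.55, edgeR adjusted p = 0.0146), while the other 8 were at most 7.35 CPM in every library. The part of platelet RNA in the Ptgs1 values was not tested.

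Of the 22 tested genes of prostanoid synthesis, breakdown and reception, Ptgs1 included, 3 were higher, 2 lower and 17 not called, where 16.4% of all genes tested were called. Pla2g4a, the phospholipase that frees arachidonic acid, went from 71.3 ± 7.23 to 35.0 ± 6.62 CPM (-1.03 ± 0.16, with an adjusted p of 0.0152 by edgeR). Tbxas1, which turns prostaglandin H into thromboxane, rose from 445 ± 50.2 to 640 ± 73.3 CPM (0.52 ± 0.13, adjusted p = 0.0393). Hpgd, which inactivates prostaglandins, was lower as well, at 1038.5 ± 146 and 547 ± 150 CPM (-0.92 ± 0.20, adjusted p = 0.0311). Pla2g15, a lysosomal phospholipase, rose by 0.45 ± 0.08 and the thromboxane receptor Tbxa2r by 0.87, from 3.68 to 6.74 CPM. Without heterozygous replicate 1 or 2 the list held no call, without heterozygous replicate 3 it held 3 higher and 2 lower, without knockout replicate 2 it held 1 and 1, and without knockout replicate 3 it held 2 and 2. With length and GC offsets Hpgd was at -0.44 and was not called (adjusted p = 0.0563), Pla2g4a stood at -0.60 and Tbxas1 at 0.81.

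Pcolce2 encodes a secreted enhancer of the proteinase that trims procollagen. It was at 280.2, 279.8 and 280.7 CPM in the heterozygous libraries, a spread of 0.431 CPM (SD, n = 3), and at 263 and 227 CPM in the knockout libraries. Both knockout values were lower, but they differed from each other by more than the heterozygous values did. The log2 fold change was -0.19 ± 0.10 (95% interval -0.42 to 0.04, edgeR adjusted p = 0.212), and with length and GC offsets it became 0.20 ± 0.11. Its paralog Pcolce was far lower, at 7.93 and 10.3 CPM. The genes of procollagen processing and fibrillar collagens gave 0 higher and 5 lower of 17 tested, Pcolce2 included. Their median log2 fold change was -0.54. Over all genes tested 10.0% were lower. Bmp1, the proteinase that Pcolce2 assists, went from 39.9 ± 2.85 to 15.3 ± 5.82 CPM (-1.39 ± 0.25), Col3a1 from 44.1 to 24.2 CPM (-0.87 ± 0.14) and the collagen hydroxylase subunit P4ha1 from 186 to 128 CPM (-0.54 ± 0.10), while the hydroxylase Plod1 was at 879 and 1078.5 CPM (0.30 ± 0.10, not called). Summed stellate cell and fibroblast markers, 3 of which are collagens of this list, were also lower, at 119 to 126 CPM against 72.0 and 79.6 CPM, and their part was not tested. The list held no call without heterozygous replicate 1 or 2. It held 4 lower without heterozygous replicate 3, 2 lower without knockout replicate 2, and 1 higher and 3 lower without knockout replicate 3. P4ha1 was at -0.16 with length and GC offsets and was not called.

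Gdf15, a distant TGF-beta family hormone that cells release under stress, was scarce, ranking 11080th of 16436. The heterozygous libraries held 135, 82 and 104 counts (1.64, 1.04 and 1.43 CPM) and the knockout libraries 193 and 134 counts (2.56 and 1.73 CPM). Knockout replicate 3 exceeded heterozygous replicate 1 by less than their counting error, since the 95% exact Poisson intervals were 1.45 to 2.05 and 1.38 to 1.94 CPM. The log2 fold change of 0.65 ± 0.36 was not called (95% interval -0.24 to 1.53, edgeR adjusted p = 0.273), and counting error alone was 14.4% to 22.3% of each value. Of the 16 tested genes in the list of Gdf15, its known inducers and their targets, Gdf15 included, 10 were higher and 1 lower. Over all genes tested 6.41% were higher and 10.0% lower. Trib3, a target of the amino acid stress factor Atf4, rose from 2.84 ± 0.528 to 15.7 ± 0.82 CPM (2.47 ± 0.21, adjusted p = 0.00442), Ppp1r15a, which ends the stress-induced block of translation, from 32.9 to 70.9 CPM (1.11 ± 0.12), and Sesn2 from 80.2 to 143 CPM (0.83 ± 0.11). Trp53 rose from 108 to 147 CPM (0.45 ± 0.11). It lost the call without heterozygous replicate 1 or 2, and with length and GC offsets (0.38, edgeR adjusted p = 0.0782). The gene called lower was Ddit4, from 82.3 to 28.7 CPM (-1.52 ± 0.35), while Mdm2 (-0.36) and Cdkn1a (-0.20) were not called. Without heterozygous replicate 1 the list held 4 higher and 0 lower, without replicate 2 it held 2 and 0, and without replicate 3 it held 8 and 1. Without knockout replicate 2 it held 5 and 0, and without knockout replicate 3 it held 6 and 0. The libraries with the higher stress genes also had the higher neutrophil marker sums, whose part was not tested.

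Cdh5, vascular endothelial cadherin, joins neighbouring endothelial cells and is also a signature transcript of Kupffer cells. It fell from 243, 241 and 231 CPM in the heterozygous to 190 and 181 CPM in the knockout libraries. On the log2 scale this was -0.36 ± 0.08 (95% interval -0.56 to -0.16, adjusted p of 0.0359 by edgeR). The groups were clearly apart: the lowest heterozygous value exceeded the highest knockout value by more than the SD of either group (6.63 and 6.75 CPM). Of the 5 fits that left out 1 library, only that without heterozygous replicate 3 kept the call. Adjusted p was 0.138 and 0.127 without heterozygous replicates 1 and 2, 0.0862 and 0.105 without knockout replicates 2 and 3, 0.0599 with upper-quartile scaling and 0.0607 with no filter on low counts, while the fold change stayed between -0.40 and -0.29 in all 15 alternatives.

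Because Cdh5 is an endothelial gene, markers of sinusoidal endothelium were read beside it. Their sum was 1838, 1583 and 1547 CPM in the heterozygous and 1379 and 1303 CPM in the knockout libraries, again with no overlap. Of the 16 markers, 4 were lower and 0 higher, with a median log2 fold change of -0.43. Ehd3 went from 300 to 400 CPM down to 223 and 196 CPM and Lyve1 from 12.7 to 27.2 CPM down to 4.06 and 4.24 CPM, whereas the pan-endothelial Pecam1 (143 to 175 against 169 and 152 CPM) and Stab2 (371 to 401 against 414 and 355 CPM) overlapped between the genotypes. The part of endothelial RNA in the Cdh5 difference was not tested. In the list of cadherins and catenins, 4 of 13 tested were lower, Cdh5 included, and 0 higher, against 10.0% lower over all genes. Ptprb, the endothelial phosphatase that acts on Cdh5, went from 33.4 ± 6.61 to 11.4 ± 1.06 CPM (-1.55 ± 0.20), epithelial Cdh1 from 22.9 ± 8.73 to 6.20 ± 0.0335 CPM (-1.88 ± 0.34) and Ctnna1, the catenin that links cadherins to actin, from 180.0 to 128 CPM (-0.49 ± 0.11), while Jup was at 356 and 425 CPM (0.26 ± 0.10, not called). Without heterozygous replicate 1 or knockout replicate 2 the list held 1 lower, without heterozygous replicate 2 no call, without heterozygous replicate 3 4 lower and without knockout replicate 3 2 lower. Ctnna1 was at -0.36 with length and GC offsets and lost its call (adjusted p = 0.0541).

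Paqr9 belongs to the progestin and adipoQ receptor family of membrane proteins. It rose from 201, 224 and 232 CPM in the heterozygous to 306 and 283 CPM in the knockout libraries, with a gap between the groups. The log2 fold change was 0.43 ± 0.10 (95% interval 0.19 to 0.66, edgeR adjusted p = 0.0355), the only rise called among the 8 genes. The call held without heterozygous replicate 3, while adjusted p was 0.126 and 0.108 without heterozygous replicates 1 and 2, and 0.131 and 0.0522 without knockout replicates 2 and 3. With length and GC offsets the value grew to 0.93 ± 0.15 (adjusted p = 0.019). The annotated transcript of Paqr9 is 8.37 kb long, the longest of the 8. Of its family, Paqr9 alone was called among 10 tested genes, against 2 higher with upper-quartile scaling or with length and GC offsets. Adipor1, an adiponectin receptor, was at 666 ± 31.2 and 831 ± 70.2 CPM (0.32 ± 0.09, adjusted p = 0.0639). Without knockout replicate 3 the family held 2 higher and 1 lower, and without heterozygous replicate 1, heterozygous replicate 2 or knockout replicate 2 it held no call.

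**Figure D2:**
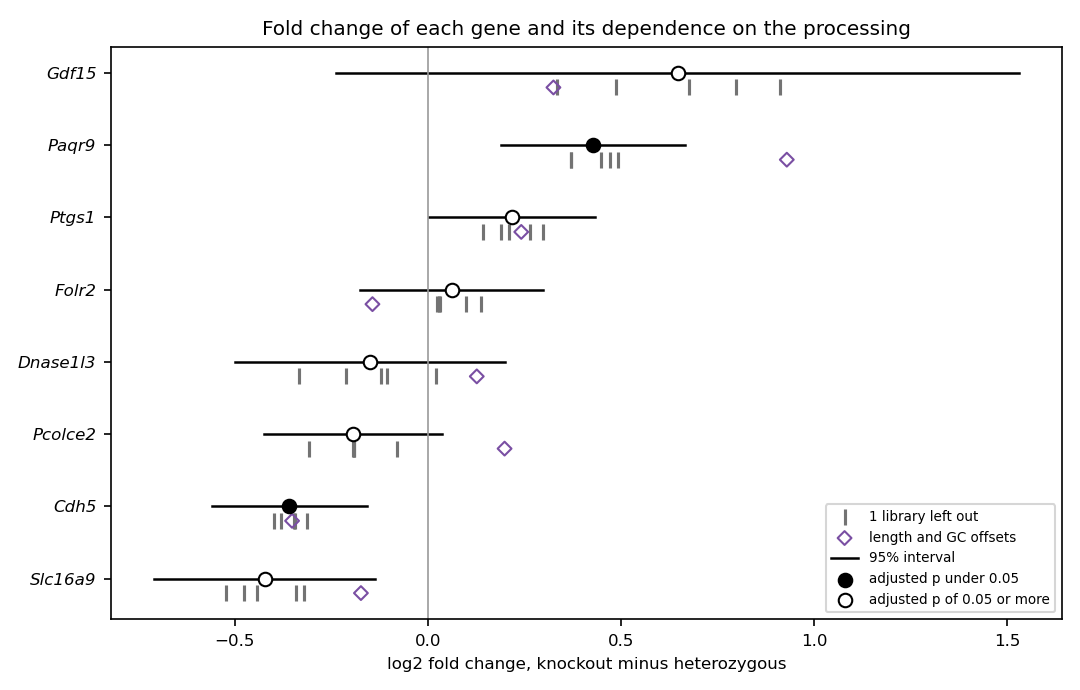
Log2 fold change (knockout minus heterozygous) of each signature gene with its 95% interval, filled where the adjusted p was under 0.05, beside the values with 1 library left out (ticks) and with length and GC offsets (diamonds). Leaving out a library moves the sign of Dnase1l3 only, whereas the offsets turn Folr2, Pcolce2 and Dnase1l3 and move Paqr9 to 0.93.

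Levels of different genes were compared per kilobase of the longest annotated transcript. In the heterozygous cells the order was Folr2 (1227 ± 109 CPM per kb), Ptgs1 (553 ± 30.8), Pcolce2 (63.1 ± 0.0972), Cdh5 (59.6 ± 1.66), Slc16a9 (32.9 ± 3.05), Paqr9 (26.2 ± 1.94), Dnase1l3 (12.6 ± 1.04) and Gdf15 (0.887 ± 0.198, each SD, n = 3). Each neighbour in that order differed from the next by more than the sum of their SDs. The lengths include exon bases shared with genes on the opposite strand. These were 975 of 1546 exon bases for Folr2, 910 of 3869 for Slc16a9 and 148 of 3884 for Ptgs1. Their part in the order was not tested. In the knockout cells Paqr9 (35.2 ± 1.88 CPM per kb) and Slc16a9 (24.5 ± 2.29) changed places, and the other 6 kept theirs. The order depended on the length used. With the median transcript length in place of the longest, Ptgs1 (2273 ± 127 CPM per kb) stood above Folr2 (2066 ± 183) in the heterozygous cells, within their spread. Pcolce2 and Cdh5 (110.7 ± 0.17 and 109.8 ± 3.05) also lay within their spread, as did Paqr9 and Dnase1l3 (26.2 ± 1.94 and 22.7 ± 1.89). With that length Paqr9 and Slc16a9 did not change places, since Slc16a9 (35.2 ± 3.29) and Paqr9 (35.2 ± 1.88) were level in the knockout cells.

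Patterns across the 5 libraries were compared by the distance between log2 levels centred on each gene's mean, where 0 is an identical pattern. Among the 8, the closest pairs were Cdh5 and Slc16a9 (0.19) and Pcolce2 and Cdh5 (0.21), and the farthest were Gdf15 and Slc16a9 (1.35). Among 8823 named genes of at least 5 CPM, those nearest to Pcolce2 were Ube2e1, Clec4f (distance 0.05) and Fam76a, so a second Kupffer signature gene stood among its nearest. Clec4f had a log2 fold change of -0.20 ± 0.08 and was not called either (adjusted p = 0.153). Nearest to Cdh5 were Polr2m, Hibadh and Arid1a, to Paqr9 Rnaseh1, Tmem175 and Tsku, to Slc16a9 Aasdhppt, Ubqln1 and Slc25a16, and to Ptgs1 Slc9a3r1, Drap1 and Atg16l1. Nearest to Folr2 were Hagh, Rrp36 and Arpc3, to Dnase1l3 Nthl1, Cisd2 and Fam162a, and to Gdf15, at larger distances (0.18 to 0.23), Mical1, Mapkapk3 and Rita1. With 5 libraries many genes share a pattern closely.

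Positions on the chromosome were not used to choose the genes. Paqr9 and Pcolce2 lie close together on chromosome 9, with only unnamed gene models, none protein-coding, between them in GENCODE M21, and their fold changes had opposite signs (0.43 and -0.19). Around the 8 genes, 3 on each side, 46 distinct neighbours were listed and 23 tested. Of those tested, 2 were higher, 2 lower and 19 not called, a share near the 16.4% called over all genes. Pxk, near Dnase1l3 though not adjacent to it, was lower (-1.08 ± 0.15), and Ssbp4 and Jund near Gdf15 were higher (0.74 ± 0.19 and 0.82 ± 0.10). Trpc1, the nearest protein-coding gene on the other side of Pcolce2, was at 0.133 to 1.12 CPM.

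The other 28 Kupffer signature genes listed, among them the lectins and scavenger receptors, gave 6 higher, 5 lower and 17 not called. Their median log2 fold change was 0.02. Over all genes tested 6.41% were higher and 10.0% lower. Cd207, which encodes langerin, rose from 167 ± 11.6 to 895 ± 2.96 CPM (2.42 ± 0.09, with an adjusted p of 0.00094 by edgeR), Arg2, the mitochondrial arginase, from 41.1 ± 0.809 to 134 ± 13.8 CPM (1.70 ± 0.10) and Id1, a paralog of Id3, from 49.9 ± 9.86 to 170 ± 6.11 CPM (1.77 ± 0.17). The other called signature genes were Marco (1.06), Cd209f (0.75) and Hmox1 (0.65), which were higher, and Xlr (-1.55), Cd163 (-1.05), Hpgd (-0.92), C6 (-0.76) and Fabp7 (-0.42), which were lower. The values of Paqr9 (0.43) and Cdh5 (-0.36) lay at the small end of this range, near that of Fabp7. Without heterozygous replicates 1, 2 and 3 the 28 genes gave 4 higher and 1 lower, 5 and 1, and 7 and 4. Without knockout replicates 2 and 3 they gave 4 and 2, and 9 and 4. With length and GC offsets they gave 9 and 2.

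**Figure D3:**
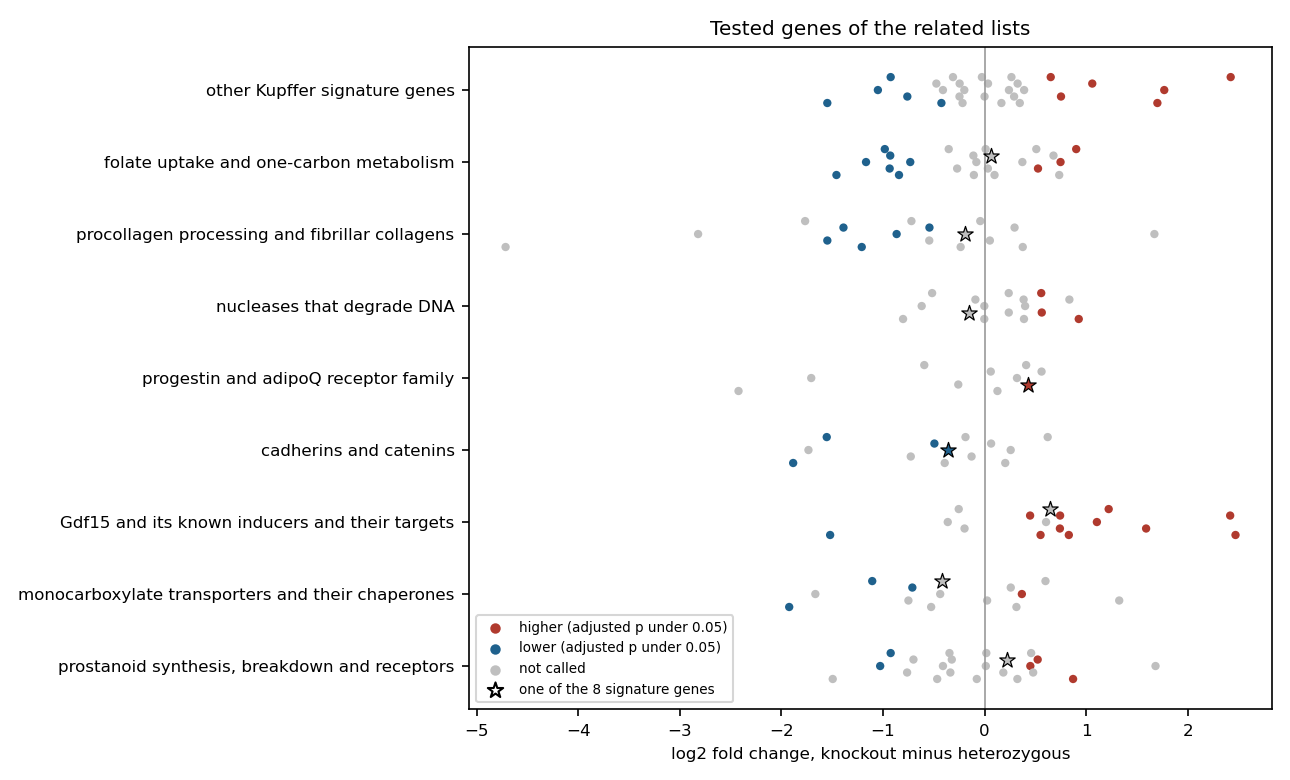
Log2 fold change (knockout minus heterozygous) of every tested gene in the related lists, red where called higher, blue where called lower and grey where not called, with the 8 signature genes as stars. Paqr9 and Cdh5 are the only coloured stars, and the stars lie between -0.42 and 0.65 while called genes of their lists reach 2.47 on the higher side.

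**Figure D4:**
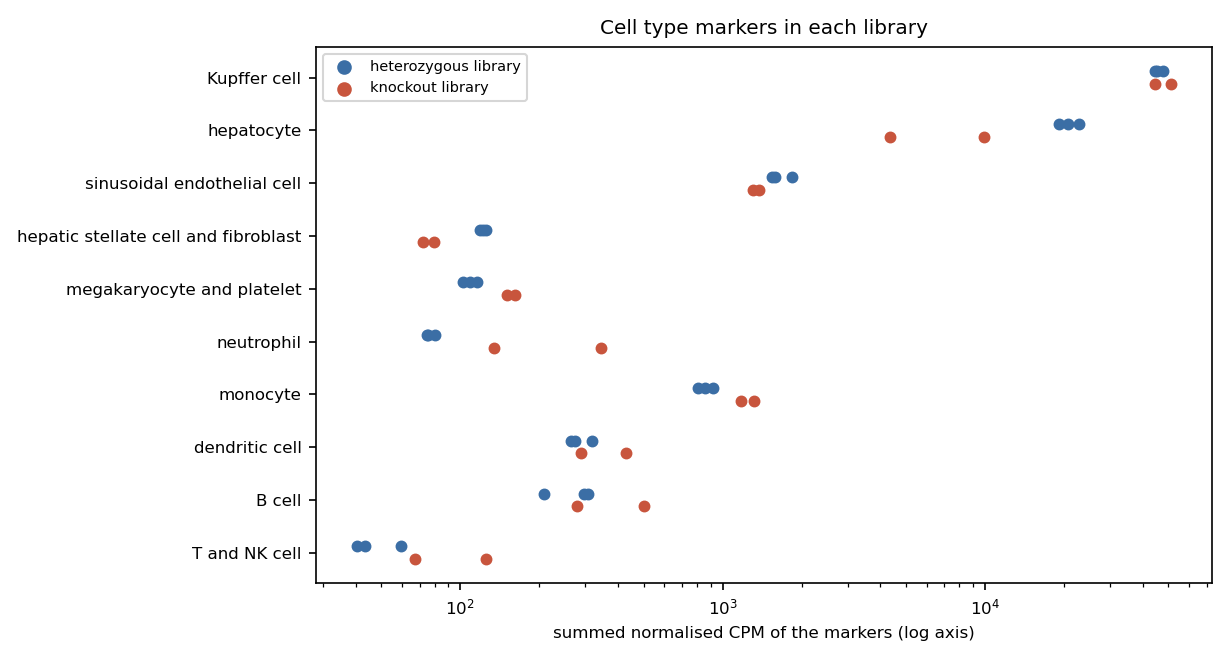
Summed normalised CPM (log axis) of the markers of 10 cell types in the heterozygous (blue) and knockout (red) libraries. Hepatocyte, endothelial and stellate sums are lower and platelet, neutrophil, monocyte, and T and NK cell sums higher in the knockout libraries without overlap, whereas Kupffer cell (44518 to 47878 against 51345 and 44419 CPM), dendritic and B cell sums overlap. Most of the monocyte sum is Treml4 (476 to 603 against 743 and 703 CPM, not called). Of the 10 monocyte markers 4 were called higher and 1, Cx3cr1, lower. Cd4 makes up 23.4 to 29.3 against 50.4 and 39.4 CPM of T and NK cell sums of 40.3 to 59.4 against 125 and 67.0 CPM.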

How the data were processed

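The authors deposited a table of whole-number read counts by gene for the 5 samples. The submitters' processing notes name HTSeq 0.5.4, DESeq 1.18.0, R 3.1.2 and the build mm9. No aligner, annotation release or strand setting is given in the sources used here. Per the labels' protocols, cDNA was amplified with a SMART-seq V4 kit. Entries that name no gene did not enter library sizes or any test. Their share of each library's full tally was 47.0%, 47.5% and 48.6% for heterozygous replicates 1, 2 and 3. For knockout replicates 2 and 3 this share was lower, at 40.0% and 42.8%. Aligned reads without a unique position were also a smaller share in both knockout libraries (32.3% and 34.1%) than in any heterozygous one (38.3% to 41.0%). The part of these differences in the fold changes was not tested. Genes were filtered by filterByExpr, scaled by TMM and fitted by genotype over all 5 samples with the quasi-likelihood test of edgeR 4.0.16 in R 4.3.3, with Benjamini-Hochberg adjustment over 16436 genes. The SE is the log2 fold change over the square root of F, and its 95% interval is approximate. For groups of 3 and 2 the smallest exact two-sided p is 0.1. Offsets for length and GC content removed, per library, a spline trend (5 degrees of freedom each) on GENCODE M21 transcripts, to which 46488 of 46983 gene IDs matched (37902 with the same version), although M21 is on a later build than mm9. Alternatives used DESeq2 1.42.0 and limma 3.58.1. The fit was also run on simulated data, whose outcome is not reported here. BLAST 2.17.0 found no stretch of 50 bases at 95% identity in a transcript of a gene elsewhere, apart from 75 bases of Dnase1l3.

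The 8 genes, the related lists and the markers were chosen with earlier results of these data known. The rule for named genes took all 8, up to 3 called genes and the most abundant other gene of each list, 3 neighbours on each side, and the 3 genes nearest in pattern. Slc46a1, Slc19a1, Tbxa2r, Ptgs2, Folr1, Pcolce, Ddit4, Mdm2 and Cdkn1a were named after their values were seen. The same holds for the single markers and the signature genes after Cd207, Arg2 and Id1. Some genes that this rule takes are not reported here.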

Additional observations from a re-analysis of the deposited data

How the results depend on the processing

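Over 15 alternatives the number of the 8 genes called ran from 0 to 3, against 2 by default. It was 1 with upper-quartile scaling or no filter on low counts, 0 with the replicate block, and 0 to 2 when 1 library was left out. Over all genes, 2698 were called by default, 4581 with DESeq2, 1 with the replicate block, and 335 to 2540 when 1 library was left out. The labels do not say that shared replicate numbers pair samples. Deviations from the group means correlated at -0.03 between the samples numbered 2 and at -0.06 between those numbered 3. With only 2 knockout libraries their deviations mirror each other, so these correlations cannot show whether samples were paired. The paired fit keeps 1 residual degree of freedom, and in it Paqr9 was at 0.37 (adjusted p = 0.254) and Cdh5 at -0.34 (adjusted p = 0.26). Length and GC offsets turned Folr2 to -0.14, Pcolce2 to 0.20 and Dnase1l3 to 0.13, all uncalled, and the cause was not tested. With 1 library left out, Dnase1l3 ran from -0.33 to 0.020, the latter without knockout replicate 2. Paqr9 kept its sign in all 15 alternatives and its call in 10, and Cdh5 its sign in 15 and its call in 8. Of the 33 other called genes that the naming rule takes from the lists, neighbours and nearest patterns, 8 kept the call in all 5 fits that left out 1 library (Cd207, Arg2, Id1, Aldh1l1, Shmt1, Pld3, Trib3 and Ppp1r15a), and 23 with length and GC offsets. Leaving out heterozygous replicates 1, 2 and 3 ended the call of 20, 25 and 3 of them, and leaving out knockout replicates 2 and 3 that of 15 and 8. Each kept its sign in these 5 fits. Depth limits only Gdf15 among the 8 genes.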
